A study of Mus musculus with 8 samples.

Results

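Livers of male (XY) mice labelled as having a liver-specific deficiency of Bcl6 were compared with livers of female (XX) wild-type mice, to measure how closely the former reached the normal female state of gene expression. The comparison used 2 arrays of each group, out of 8 arrays in the series. Its members were the genes detected in 1 or both of those groups, that is with a signal well above background on each of a group's arrays, without genes of the X and Y chromosomes. These were 22735 of the 23870 genes fitted, 13799 of them with a gene symbol, and 510 of the genes fitted were on the X or Y chromosome. Of the members, 21094 were above background in both groups, 718 passed only through the male group and 923 only through the female group. A gene without a symbol carried the name of its transcript on the array, and 7413 members had no known chromosome, so some may lie on the sex chromosomes.

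All mice were of the C57BL6 strain, aged 10 to 11 weeks, and total RNA of whole liver was extracted with Trizol. Each sex had a wild-type group and a group labelled Bcl6-deficient, with 2 arrays each (replicates 3 and 4), and all 8 arrays were on 1 slide. The Cre driver behind the liver-specific deficiency is not given in the sources used here. Nothing in the labels says that replicates came from separate animals, and p-values here reflect only how far these samples spread, which may be technical. A level is a log2 signal after subtraction of the array's 75th percentile, so that 0 is the level of a fairly bright probe. Each difference is on the log2 scale, given with its standard error (SE, n = 2 arrays per group). A gene passed the test at an adjusted p below 0.05 (limma, Benjamini-Hochberg over all genes fitted). Because whole liver was measured, fewer cells of a type and less RNA per cell cannot be told apart.

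The targeted gene did not follow the labels. Bcl6 signal was 4.31 and 4.86 in males labelled Bcl6-deficient and 2.02 and 4.17 in female wild-type livers, a difference of 1.49 ± 0.57 (adjusted p = 0.197, limma). Without replicate 4 of the female wild-type group the difference was 2.56 (adjusted p = 0.00332). Wild-type males read 3.20 and 3.55, and females labelled Bcl6-deficient 4.04 and 4.82. Against wild-type males, the males labelled Bcl6-deficient differed by 1.21, which did not pass (adjusted p = 0.203, limma). The wild-type sexes differed by 0.28 ± 0.57 (adjusted p = 0.821, limma), so a higher Bcl6 signal in wild-type males was not clear here. Whether the probe lies in a deleted part of the gene was not tested, so Bcl6 checks nothing here and the groups are named by their labels. On the slide, wild-type arrays were the outer columns and arrays labelled Bcl6-deficient the inner ones, and column and genotype label cannot be told apart. Between 28073 and 30624 probes per array (49.6% to 54.1%) were well above background, and no spot was saturated.

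The pair of female wild-type arrays stood apart from each other in known sex-biased genes. In a list of male-biased liver genes, 34 of 40 were higher on female replicate 3 than on replicate 4, and 14 differed by at least 1, each of them higher on replicate 3. Among all members with a symbol, 56.0% were higher on replicate 3 and 2.68% differed by at least 1. In a list of female-biased genes 14 of 47 differed by at least 1 between these arrays, while none did between the male arrays labelled Bcl6-deficient. In the male-biased list those male arrays also stood apart, with 8 of 40 genes differing by at least 1, against 2.24% of members with a symbol. Values are therefore given for each array, and the distance between the female arrays enters the error of each gene.

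Mouse liver is one of the most sexually dimorphic organs. Growth hormone is secreted in pulses in males and more steadily in females, and in hepatocytes it acts through its receptor, the kinase JAK2 and the transcription factor STAT5B. BCL6 is a transcriptional repressor that is more abundant in male liver and binds many of the DNA sites that STAT5 uses, at genes expressed mainly in females. Many of the genes concerned encode cytochrome P450 enzymes, sulfotransferases and carriers for steroids, drugs and bile acids.

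Male livers labelled Bcl6-deficient were closer to female wild-type livers than to male wild-type livers in their array-to-array distance, but they were not the same. The root mean square difference over members was 0.65 to 0.69 between their arrays and female wild-type arrays, and 0.84 to 0.87 between their arrays and male wild-type arrays. Wild-type arrays of opposite sex differed by 0.60 to 0.66, and arrays of 1 group by 0.34 to 0.42. The distance from males labelled Bcl6-deficient to wild-type females was thus about that between the sexes in wild-type mice. Between the sexes of mice labelled Bcl6-deficient it was 0.37 to 0.41.

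Between the groups compared, 1500 genes (6.6%) passed the test. Of these, 872 (3.84%) were higher and 628 (2.76%) lower in males labelled Bcl6-deficient, and 570 and 308 of them differed by at least 2-fold. For 17426 members (76.6%) the 95% interval of the difference lay within 1 on either side of 0. Of the genes called, 1301 were above background in both groups, 144 only in the male group and 55 only in the female group. For 1277 of the 1500 (85.1%) the wild-type means of the sexes differed by less than 1, as they did for 95.9% of all members. The count fell to 834 without male replicate 3 and to 981 without male replicate 4, and to 963 when only the 4 arrays compared were fitted. The lower genes numbered 338 without female replicate 3, 340 without male replicate 3 and 389 without male replicate 4, and the higher ones 494 without male replicate 3.

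Exchanging the sexes gave a comparison that shares no array with this one: females labelled Bcl6-deficient against male wild-type livers. It called 3831 members (16.9%), of which 1843 (8.11%) were higher and 1988 (8.74%) lower in the females. Of the 1500 genes, 1100 were called there in the same direction, which is 73.3% of the calls here and 28.7% of the calls there. Another 34 were called in the opposite direction, and 366 were not called there. The count of calls in that comparison was 1718 and 2096 without replicates 3 and 4 of the females labelled Bcl6-deficient, and 2426 and 2346 without those of the wild-type males. Across members the differences of both comparisons had a Pearson correlation of 0.65, over genes that are not independent replicates. Both comparisons set inner columns of the slide against outer columns.

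**Figure D1:**
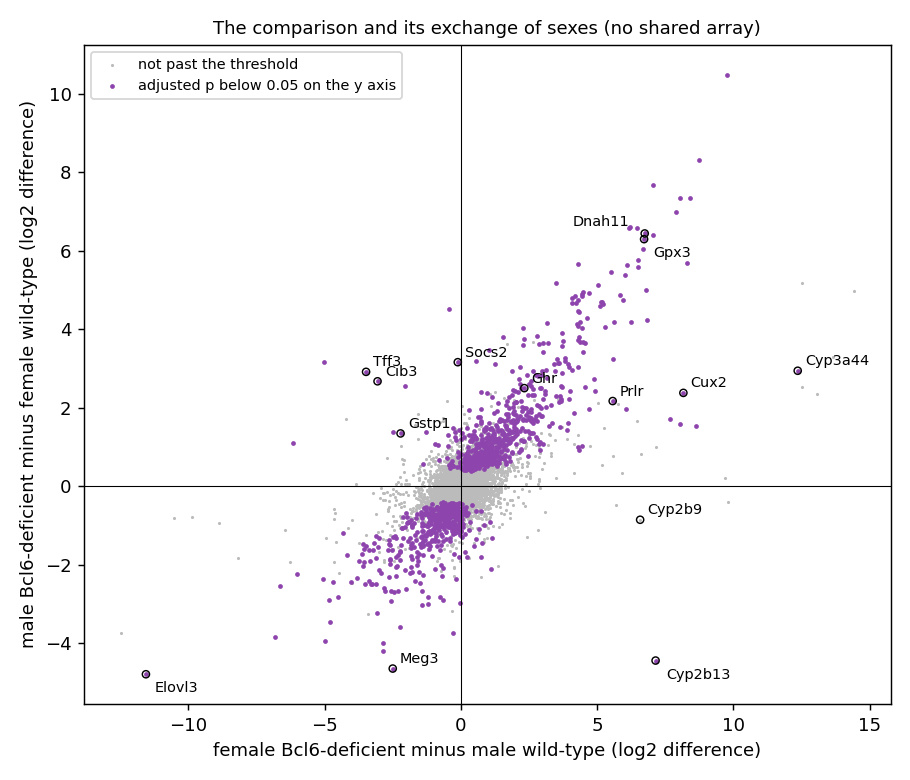
Log2 differences of members with a symbol between males labelled Bcl6-deficient and wild-type females (vertical axis) against that between females labelled Bcl6-deficient and wild-type males (horizontal axis), with genes past the threshold on the vertical axis in purple and named genes circled. Gpx3 and Dnah11 lie far up in both, Elovl3 far down in both, and Cyp2b13 is low vertically and high horizontally.

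The 940 members whose wild-type means differed by at least 1 were placed relative to the female level, whether or not that difference passed. Of these, 448 passed between the wild-type sexes, 189 higher in males and 259 higher in females. For the rest a sex bias was not clear. The wild-type male arrays enter this choice and the share of the distance covered. A chance shift of those arrays can therefore bring in genes that were at the female level without any change. The female arrays enter both the choice of these genes and their placing, so a chance shift of those arrays moves both, and the shares are given without a test. Of 588 genes higher in wild-type females, 59 were past the female level in males labelled Bcl6-deficient, 23 stopped between the male and female levels, and 36 lay beyond the male level. A further 121 were near the female level, with an interval within 1 of it, and 349 could not be placed. Of 352 genes higher in wild-type males, 52 were past the female level, 24 stopped between, 29 were beyond the male level, 85 were near and 162 could not be placed. Genes past, between or beyond these levels passed the test against females, but no difference from wild-type males was required. Beyond the male level means only that the mean lay past the wild-type male mean. Some such genes overlapped wild-type males, as did Sult2a7 (difference from wild-type males -0.30) and Socs2 (0.30). The share of the distance covered was taken only for genes well above background on all 6 arrays of these groups. Of the 302 such genes higher in wild-type females, the median gene had covered 89.1% of the log2 distance from the male to the female level. For the 249 higher in wild-type males the median was 106%. Comparing the sexes in wild-type mice called 749 members (3.29%), and it shares the female arrays with the main comparison. That count was 427 without wild-type female replicate 4, and 344 and 408 without wild-type male replicates 3 and 4. Without those male arrays 348 and 366 genes in all, in place of 206, were near the female level, and without replicates 3 and 4 of the males labelled Bcl6-deficient 26 and 30 stopped between, in place of 47.

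Known female-biased liver genes went past the female level or fell short of it gene by gene. Of 47 members of that list, 13 rose above wild-type females, 3 fell below them and 31 did not pass. Without male replicate 3, 8 rose, and 6 fell without female replicate 4 and 5 without either wild-type male array. Their median difference was 0.55, against 0.00 over all members. Of the 16 that passed, 11 did so without any one array, and in every other alternative tried.

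Prlr, the prolactin receptor, read 6.67 and 6.54 in males labelled Bcl6-deficient, 4.60 and 4.26 in wild-type females and 1.30 and 1.61 in wild-type males. Both males labelled Bcl6-deficient were above both wild-type females, by 2.17 ± 0.15 (adjusted p = 5.27e-05). Cux2, a transcription factor of female liver, read 2.06 and 2.11 against -0.56 and -0.03 in wild-type females. It was not well above background in wild-type males, and its rise over females was 2.38 ± 0.23 (adjusted p = 0.000356). Akr1b7, an aldo-keto reductase, read 1.70 and 1.60 against -0.84 and -0.71, a rise of 2.43 ± 0.18 (adjusted p = 7.47e-05). All 3 were above wild-type females, which were themselves above wild-type males.

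The same order held for enzymes and carriers. Cyp3a44, a steroid and drug oxidase, read 6.42 and 5.63 against 3.80 and 2.36 in wild-type females (2.95 ± 0.41, adjusted p = 0.00323). Hao2, a hydroxy acid oxidase, read 3.18 and 3.48 against 1.69 and 1.90 (1.54 ± 0.15, adjusted p = 0.000479). Cd36, a fatty acid transporter, read 3.71 and 3.22 against 2.12 and 2.32 (1.25 ± 0.20, adjusted p = 0.00625). In none of these did the groups overlap, as for 48.4% of all members. Nt5e, which makes adenosine from AMP, rose by 1.03 ± 0.13 and the steroid hydroxylase Cyp2a4 by 0.85 ± 0.11.

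Other rises rested on more fragile calls. Cyp17a1, a steroid hydroxylase and lyase, read 4.83 and 4.88 against 3.70 and 4.03 in wild-type females and 0.87 and 0.20 in wild-type males. Its excess of 0.99 ± 0.20 (adjusted p = 0.0217) no longer passed without female replicate 3, male replicate 3 or male replicate 4, and ranged from 0.83 to 1.16 as single arrays were left out. The calls of Cyp3a16 (0.94), Cyp3a41a (0.57) and Sult3a2 (1.71) were also lost without some single arrays, with differences from 0.45 for Cyp3a41a to 2.03 for Sult3a2. Wild-type males were below wild-type females by only 0.64 in Cyp3a16 and 0.20 in Cyp3a41a. Neither sex difference passed, so a female bias of these genes was not clear here.

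The clearest shortfall was Cyp2b13. It read 2.14 and 1.83 in males labelled Bcl6-deficient, 6.10 and 6.75 in wild-type females, and -5.54 and -4.68 in wild-type males, where it was not well above background. It fell short of females by 4.44 on the log2 scale (SE 0.32, adjusted p = 7.08e-05), although it was at least 61.2-fold above wild-type males. Females labelled Bcl6-deficient read 2.33 and 1.74, close to the values of the males with that label. The closely related Cyp2b9 did not pass: it read 6.99 and 6.76 against 7.66 and 7.79 in wild-type females (-0.85 ± 0.38, adjusted p = 0.274), and -0.38 and 1.14 in wild-type males. Leaving out either wild-type male array, which lay apart from each other, the difference was the same and the adjusted p was 0.00635. Cyp2b10, a phenobarbital-inducible relative, read 7.18 and 7.06 against 7.50 and 7.68 (-0.47 ± 0.36, adjusted p = 0.552). Genes of this family are similar in sequence, and hybridisation of 1 transcript to another's probe was not tested.

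The promoters of Cyp2b9 and Cyp2b13 are shown because the genes ended so differently while these windows are almost alike. Each window runs from 250 bases before to 50 after the start of the gene (RefSeq, build GRCm38.p6), written 5′ to 3′, with capitals at the bases that differ.
Cyp2b9 promoter, chr7:26173159-26173458, + strand: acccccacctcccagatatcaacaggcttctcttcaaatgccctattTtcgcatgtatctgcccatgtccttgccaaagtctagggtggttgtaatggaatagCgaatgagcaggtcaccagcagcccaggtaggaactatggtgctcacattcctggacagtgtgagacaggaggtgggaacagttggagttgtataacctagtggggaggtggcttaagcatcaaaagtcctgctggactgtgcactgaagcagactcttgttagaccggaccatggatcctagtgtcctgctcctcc
Cyp2b13 promoter, chr7:26061245-26061544, + strand: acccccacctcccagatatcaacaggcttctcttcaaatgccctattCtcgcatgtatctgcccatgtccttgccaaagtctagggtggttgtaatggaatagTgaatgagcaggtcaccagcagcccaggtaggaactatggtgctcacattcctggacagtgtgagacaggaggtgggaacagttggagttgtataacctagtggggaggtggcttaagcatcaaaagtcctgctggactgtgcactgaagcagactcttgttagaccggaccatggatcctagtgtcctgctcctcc
Of 300 bases compared, 298 were identical, and the differences from Cyp2b9 to Cyp2b13 were T48C and C104T, counted from 1 at the 5′ end of the window. The corresponding Cyp2b10 window matched either of them at 220 of 311 aligned positions. The rest of either locus was not used here.

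Acnat2 and Cyp39a1, also female-biased, fell below wild-type females. Acnat2, of the family of acyl-CoA amino acid acyltransferases, read 2.69 and 2.40 against 4.31 and 4.40 in females and 0.95 and 1.78 in wild-type males (-1.81 ± 0.24, adjusted p = 0.00223). Cyp39a1, an oxysterol hydroxylase of bile acid synthesis, read 0.94 and 0.59 against 2.99 and 3.08 (-2.27 ± 0.15, adjusted p = 4.92e-05). At 1.78 and 2.06, wild-type males were also above it, so Cyp39a1 lay beyond the male level. Both genes kept their calls without any one array.

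For the sulfotransferases of the Sult2a family the female reference itself was not settled. Sult2a1 read 0.64 and 6.20 in wild-type females but 8.57 and 8.22 in males labelled Bcl6-deficient and -6.15 and -5.82 in wild-type males. Its difference of 4.98 ± 1.34 did not pass (adjusted p = 0.0665). Without female replicate 3 the difference was 2.20 and without replicate 4 it was 7.76, and either passed. Female arrays were also far apart for Sult2a4 (5.18 ± 1.39), Sult2a6 (3.29 ± 1.06) and Sult2a2 (2.53 ± 1.06). They read -1.43 and 4.34, 1.97 and 6.37, and 2.22 and 6.46, and in each gene both male arrays labelled Bcl6-deficient were above both female arrays. The same held for A1bg (2.34 ± 0.64), whose female arrays read 5.93 and 3.30, this time with replicate 3 the higher. These genes were at least 42.2-fold higher in wild-type females than in wild-type males and at least 1530-fold higher in males labelled Bcl6-deficient, but their distance past the female level could not be fixed. The former bound, that of Sult2a4, was 5.71-fold without female replicate 4 and 312-fold without replicate 3.

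A few female-biased genes ended near the female level. The organic anion transporter Slc22a26 read 4.24 and 4.11 against 4.28 and 3.65 in wild-type females and -6.03 and -5.77 in wild-type males. The difference from females was 0.21 ± 0.20 (adjusted p = 0.643). Slco1a4 (-0.28 ± 0.15), Trim24 (0.27 ± 0.25), Tox (-0.26 ± 0.26), Cyp2c69 (-0.29 ± 0.23) and Cyp2c40 (-0.35 ± 0.23) likewise had intervals within 1 of the female mean. Without female replicate 4, Cyp2c69 and Cyp2c40 passed as lower, by 0.70 and 0.76.

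**Figure D2:**
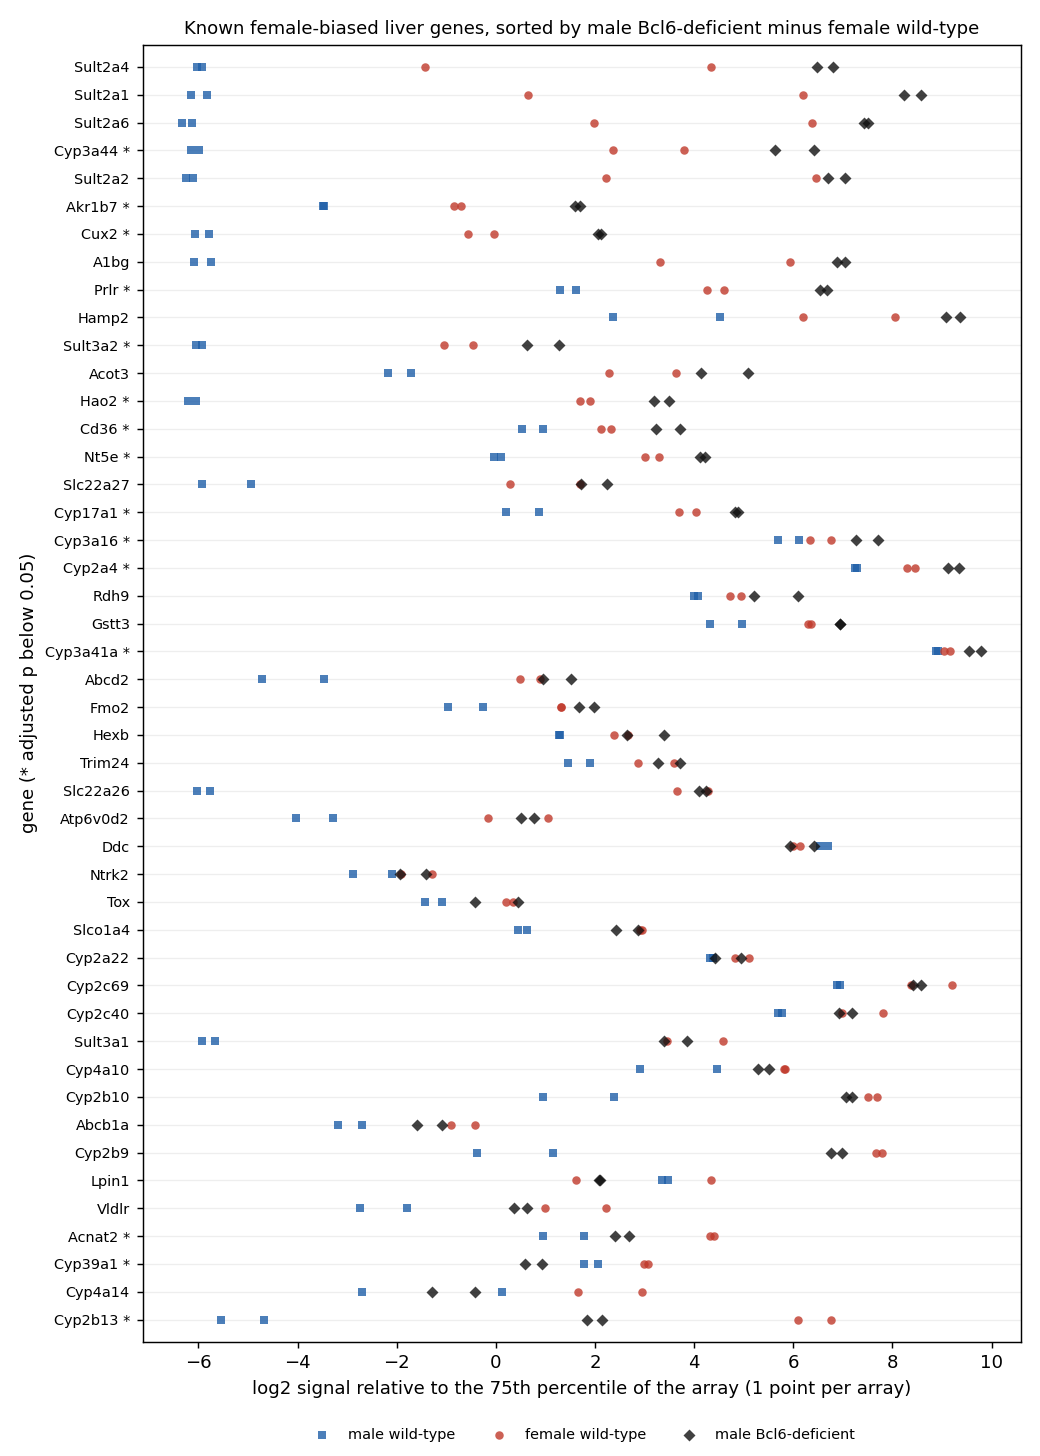
Levels of known female-biased genes on each array (log2, 1 point per array) in wild-type males (blue squares), wild-type females (red circles) and males labelled Bcl6-deficient (black diamonds), ordered by the difference from females. Black points lie to the right of red ones from Sult2a4 down to Gstt3, while Cyp2b13, at the foot, lies between the blue and red points.

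Known male-biased genes were split. Of 40 members of that list, 11 fell below wild-type females, 5 were above them and 24 did not pass, with a median difference of -0.49. Without female replicate 3 or male replicate 3, 6 fell, and 7 without male replicate 4. Of the 16 that passed, 8 did so without any one array and in every other alternative tried.

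Elovl3, which elongates very long chain fatty acids, read -3.70 and -3.46 in males labelled Bcl6-deficient, 1.62 and 0.79 in wild-type females and 6.82 and 6.46 in wild-type males. It thus fell below females by 4.79 on the log2 scale (SE 0.28, adjusted p = 1.9e-05), the groups being far apart, and females labelled Bcl6-deficient were at -5.13 and -4.70. Cyp2d9, a male steroid hydroxylase, read 3.35 and 2.98 against 4.41 and 4.28 in females and 7.57 and 7.54 in wild-type males (-1.18 ± 0.14, adjusted p = 0.00118). Susd4, a complement regulator, read 0.90 and 0.85 against 3.07 and 2.97 (-2.14 ± 0.15, adjusted p = 5.27e-05). Nudt7, a peroxisomal CoA hydrolase, read 4.94 and 5.02 against 7.02 and 6.43 (-1.74 ± 0.18, adjusted p = 0.000588). In each of these genes wild-type females lay between the other groups, and no arrays overlapped. Nox4 (-1.63 ± 0.32), Hsd17b2 (-0.86 ± 0.18) and Cyp2f2 (-0.56 ± 0.13) also fell, with calls that were each lost without more than 1 of the arrays taken singly. Wild-type males exceeded wild-type females by 0.04 in Hsd17b2 and by 0.53 in Cyp2f2, and neither difference passed. Of the male arrays, 1 measured Nox4 above background. Ces4a was not well above background in males labelled Bcl6-deficient and at least 2.12-fold lower than in females (adjusted p = 0.0431), a bound of 1.20-fold without female replicate 3 and 3.73-fold without replicate 4, and its call was lost without each of 5 arrays taken singly.

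Of the genes of the terminal complement complex, which forms pores in target membranes, C8a, C8b and C9 fell. C8a read 2.47 and 2.94 against 5.56 and 4.52 in females and 6.29 and 6.01 in wild-type males (-2.34 ± 0.31, adjusted p = 0.00243). C8b was lower by a similar amount (-2.37 ± 0.40) and C9 too (-2.23 ± 0.46). C8b did not pass without male replicate 3, and C9 did not pass without male replicate 3 or female replicate 3, with a difference of -1.47 in the former case. C6, another gene of that complex, read -0.41 and -0.04 against 1.01 and -0.10, and did not pass (-0.68 ± 0.32, adjusted p = 0.294). In the wider list of complement and coagulation genes, 3 of 37 were higher and 4 lower, beside 3.84% and 2.76% of all members. The median of that list was 0.12, and its highest gene was coagulation factor F7 (1.40 ± 0.13, adjusted p = 0.000263).

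Genes of the male-biased list above the female level were Socs2, Cib3, Asns, Gstp1 and Hsd11b1. Socs2, a feedback inhibitor of growth hormone signalling, read 4.30 and 3.23 against 0.97 and 0.24 in females (3.16 ± 0.39, adjusted p = 0.0018), and its range held both wild-type male values, 3.34 and 3.58. Gstp1, a glutathione transferase, read 6.39 and 6.43 against 5.06 and 5.07 in females and 8.43 and 8.10 in wild-type males, between both (1.35 ± 0.13, adjusted p = 0.000428). Cib3, a calcium-binding protein, read -0.08 and 1.05 against -2.56 and -1.82 (2.68 ± 0.38, adjusted p = 0.00373), also between the sexes. The difference of Asns, asparagine synthetase, was 2.55 ± 0.54 and was lost without either female array, and that of Hsd11b1 (0.75 ± 0.16) was lost without female replicate 3 or male replicate 3. Hsd11b1 read 7.29 and 7.16 in wild-type males and 7.53 and 7.67 in wild-type females, so it was not higher in wild-type males here.

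In the male-biased list 5 genes ended near the female level, with intervals within 1 of it. They were Cyp2u1 (0.12 ± 0.24), Ugt2b1 (-0.11 ± 0.16), Mup20 (-0.32 ± 0.20), Hsd3b2 (-0.39 ± 0.16) and Selenbp2 (-0.42 ± 0.16). Wild-type males exceeded wild-type females by 1.005 (Mup20) to 2.26 (Cyp2u1) in these genes. Several other classic male genes could not be placed. Hsd3b5, a steroid dehydrogenase, read -1.96 and -3.18 in males labelled Bcl6-deficient and 7.51 and 7.24 in wild-type males, but 3.64 and -1.28 in wild-type females. It did not pass with both female arrays (adjusted p = 0.13) and passed without female replicate 4, at -6.21 (adjusted p = 0.000143). The fatty acid hydroxylase Cyp4a12a read -2.54 and -0.38 against 0.49 and -1.85 in females and 6.14 and 6.24 in wild-type males, with overlapping groups. Cyp7b1, an oxysterol hydroxylase, read 4.51 and 3.87 against 5.16 and 3.58. Female replicate 3 was the higher in each of these. Cish, another feedback inhibitor of cytokine receptors, read 1.65 and 1.62 against 0.77 and -1.17 (1.84 ± 0.57, adjusted p = 0.107), and passed without female replicate 3, at 2.81.

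**Figure D3:**
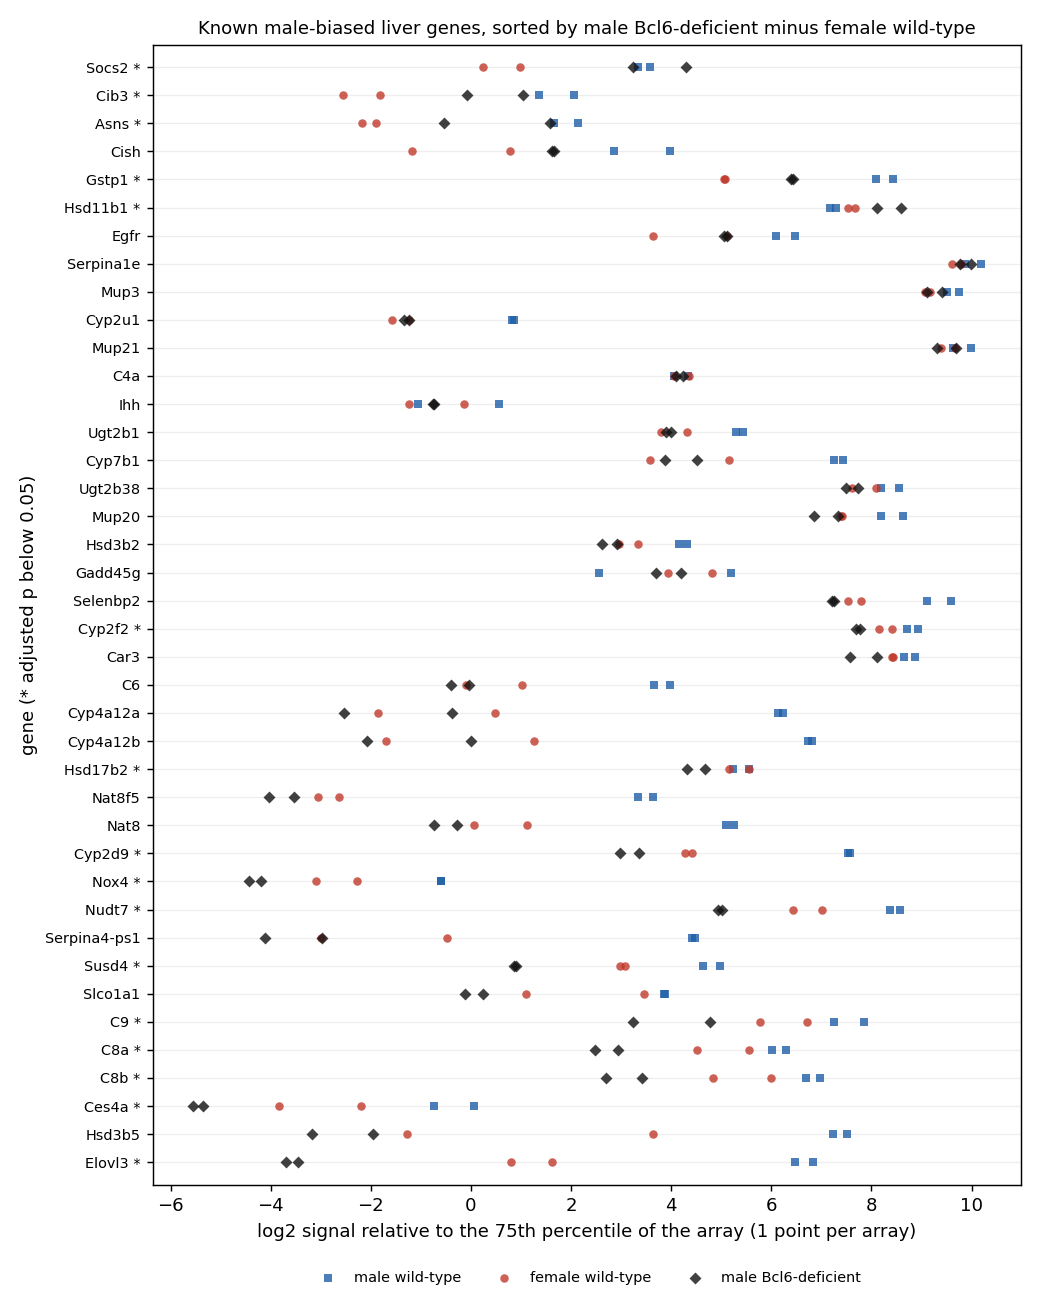
Level of each known male-biased gene on each array (log2, 1 point per array), with groups marked as blue squares (wild-type males), red circles (wild-type females) and black diamonds (males labelled Bcl6-deficient), ordered by the difference from females. Socs2, Cib3 and Asns head the plot with black points right of red ones, and Elovl3 closes it with black points far left of both other groups.

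Within the growth hormone pathway the receptor was higher, and transcription factors differed from one another. Of 41 measured genes of growth hormone signalling and liver sex regulation, 8 rose, 2 fell and 31 did not pass, with a median of 0.28. Ghr, the growth hormone receptor, read 8.14 and 7.71 against 5.44 and 5.41 in wild-type females and 5.76 and 5.57 in wild-type males (2.50 ± 0.15, adjusted p = 2.04e-05). It had no sex difference of 1 in wild-type mice, and females labelled Bcl6-deficient read 7.97 and 8.01. Prlr, Cux2 and Socs2 were the other large rises. Chosen after their values were seen, the genes Stat5b (0.04 ± 0.13), Hnf4a (-0.01 ± 0.16) and Igf1 (0.00 ± 0.17) gave intervals within 1 of 0. Hnf4a encodes a nuclear receptor that maintains hepatocyte identity, and Igf1 is the main liver hormone driven by growth hormone.

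Other transcription factors of the list, likewise named after their values were seen, went various ways. Onecut1 (HNF6), which is controlled by growth hormone, read 3.43 and 3.09 against 1.81 and 1.94 in females and 4.48 and 4.33 in wild-type males (1.39 ± 0.18, adjusted p = 0.00245), between the sexes. Foxa3 rose above females (1.30 ± 0.14, adjusted p = 0.000828) while Foxa1 fell (-1.37 ± 0.20, adjusted p = 0.00377). Both encode pioneer factors of liver genes. Esr1, the estrogen receptor, read 3.60 and 3.94 against 2.81 and 2.83 in females and 1.56 and 1.17 in wild-type males (0.95 ± 0.16, adjusted p = 0.00889). Of 13 BCL6 corepressor genes measured, none passed (limma), beside 6.6% of all members. Intervals within 1 of 0 were found for 12 of them, beside 76.6% of all members, and their median was -0.24.

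The sequence TTCNNNGAA is the core that STAT5 and BCL6 both recognise, and it reads the same on both strands. Windows that hold it are shown for the receptors Prlr and Esr1, which rose, and for Cish, which did not pass, with each match in capitals (RefSeq, build GRCm38.p6, written 5′ to 3′).
Prlr promoter, chr15:10223656-10223955, + strand: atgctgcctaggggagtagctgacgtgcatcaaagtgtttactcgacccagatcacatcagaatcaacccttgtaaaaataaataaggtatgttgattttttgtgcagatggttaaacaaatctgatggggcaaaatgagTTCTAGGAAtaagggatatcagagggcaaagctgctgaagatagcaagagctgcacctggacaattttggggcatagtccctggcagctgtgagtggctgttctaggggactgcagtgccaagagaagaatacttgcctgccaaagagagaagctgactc
Esr1 promoter, chr10:4709908-4710207, + strand: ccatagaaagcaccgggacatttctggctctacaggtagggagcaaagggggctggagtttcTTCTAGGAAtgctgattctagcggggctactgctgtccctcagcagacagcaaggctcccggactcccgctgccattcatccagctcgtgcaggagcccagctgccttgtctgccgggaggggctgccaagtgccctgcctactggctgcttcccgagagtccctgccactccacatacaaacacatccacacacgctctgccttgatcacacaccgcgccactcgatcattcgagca
Cish promoter, chr9:107296409-107296708, + strand: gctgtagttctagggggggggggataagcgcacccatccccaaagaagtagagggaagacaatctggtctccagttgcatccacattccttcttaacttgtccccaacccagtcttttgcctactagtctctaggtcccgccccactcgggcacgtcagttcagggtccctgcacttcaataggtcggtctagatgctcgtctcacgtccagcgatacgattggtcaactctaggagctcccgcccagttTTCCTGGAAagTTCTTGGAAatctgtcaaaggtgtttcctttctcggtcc
Prlr and Esr1 held 1 match each in these windows, and Cish held 2. Of 32851 windows of 300 bases in the table, 2726 (8.3%) held a match. Counted by gene over all of a gene's windows, a match was found in 938 of 10927 members with a window (8.58%). Among genes called higher it was in 42 of 470 (8.94%), and among genes called lower in 34 of 370 (9.19%). Of the female-biased list 6 of 36 genes had one, and of the male-biased list 3 of 29. A match is a description of these letters and no evidence of binding.

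Many of the highest differences were in genes outside the sex-biased lists. The uncharacterised 2210407C18Rik was not well above background in wild-type females and was at least 324-fold higher in males labelled Bcl6-deficient, a bound that sets the bright group's mean against the dimmest signal accepted as above background, as for the other bounds here. Its male arrays read 2.55 and 5.56, and the bound was 922-fold without male replicate 3 and 114-fold without replicate 4. Adra2c, an adrenergic receptor, was at least 123-fold higher, Slc22a2, an organic cation transporter, at least 42.7-fold and Acer1, a ceramidase, at least 30.2-fold. Gm32448 was at least 61.9-fold higher. The bound of Slc22a2 was 27.8-fold without male replicate 3 and 65.7-fold without replicate 4. Wild-type males were not above background in any of the 5, and females labelled Bcl6-deficient were at least 28.8-fold above wild-type males in each.

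Gpx3, a secreted glutathione peroxidase, read 4.94 and 4.76 against -1.35 and -1.54 in wild-type females, a rise of 6.30 ± 0.14 (adjusted p = 1.32e-07). Dnah11, a motor protein of cilia, read 3.18 and 2.57 against -3.52 and -3.63 (6.44 ± 0.21, adjusted p = 6.8e-07). Inhbb, an activin and inhibin subunit, rose by 4.70 ± 0.26, the lens crystallin Crybb3 by 4.74 ± 0.50 and the fibroblast growth factor homologue Fgf11 by 4.70 ± 0.33. The wild-type sexes differed by at most 0.23 in each of these. For Fgf11, different probes gave 0.51 to 5.36.

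Of 9 measured genes named Klk1 or Klk1b, which encode kallikrein-related peptidases, 8 rose (a grouping made after the values were seen). Klk1, Klk1b3, Klk1b4, Klk1b8, Klk1b22, Klk1b24 and Klk1b26 rose by 4.68 to 4.94, and Klk1b4, for example, read 4.64 and 4.58 against -0.33 and -0.34 in wild-type females. Klk1b5 rose by 4.66 and Klk1b21 did not pass, at 0.11 ± 0.26 (both named after their values were seen). These genes are near-identical copies, so their probes may read one another's transcripts and the number of genes that rose is uncertain.

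Some genes fell below both wild-type sexes. The long noncoding RNA Meg3, expressed from the maternal allele, read -3.32 and -3.02 against 2.04 and 0.90 in wild-type females and 0.02 and 0.15 in wild-type males (-4.64 ± 0.32, adjusted p = 5.19e-05). Its neighbour Rian was at least 5.47-fold lower than in females, a call lost with normexp background correction. Peg3, expressed from the paternal allele, was by contrast higher, at 1.27 and 0.79 against -3.03 and -3.29 (4.19 ± 0.29, adjusted p = 5.34e-05). Avpr1a, a vasopressin receptor, read 1.22 and 0.89 against 4.61 and 4.67 (-3.59 ± 0.23, adjusted p = 4.2e-05). Adrb3, an adrenergic receptor, read -3.79 and -3.32 against -0.20 and -0.01 (-3.45 ± 0.27, adjusted p = 0.000101). The 2 probes of Adrb3 gave -3.45 and -1.05.

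Further large differences below wild-type females were those of Ildr2 (-2.93 ± 0.17), Pcp4l1 (-3.02 ± 0.29), Serpinb1a (-2.82 ± 0.33), Serpinb1c (-2.82 ± 0.50), Sult2a7 (-2.90 ± 0.66) and Cyp26b1 (-3.23 ± 0.60). Among them, Serpinb1a, Serpinb1c and Sult2a7 overlapped wild-type males. Serpinb1a read 1.79 and 0.65 against 1.65 and 2.24 in wild-type males. Serpinb1c read -1.99 and -3.73 against -2.89 and -2.02, and Sult2a7 -0.08 and -1.53 against -0.42 and -0.59. Cyp26b1 degrades retinoic acid, and without female replicate 3 it did not pass. Sult2a7 did not pass without each of 5 arrays taken singly. Pax2 fell by 2.90 on its brightest probe while its other probe rose by 0.67, and the mean of both did not pass. For Pcp4l1 the 2 probes gave -3.02 and -1.15. Slc26a4, an anion exchanger, was at least 6.87-fold lower, Irx1 at least 3.88-fold, Gal3st1 at least 3.80-fold, Gm15401 at least 3.79-fold and Olig1 at least 3.45-fold. The bound of Irx1 was 2.49-fold without female replicate 3 and 6.04-fold without replicate 4. Of these, Gal3st1, Gm15401 and Olig1 did not pass without some single arrays, and all but Slc26a4 did not pass with normexp background correction.

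**Figure D4:**
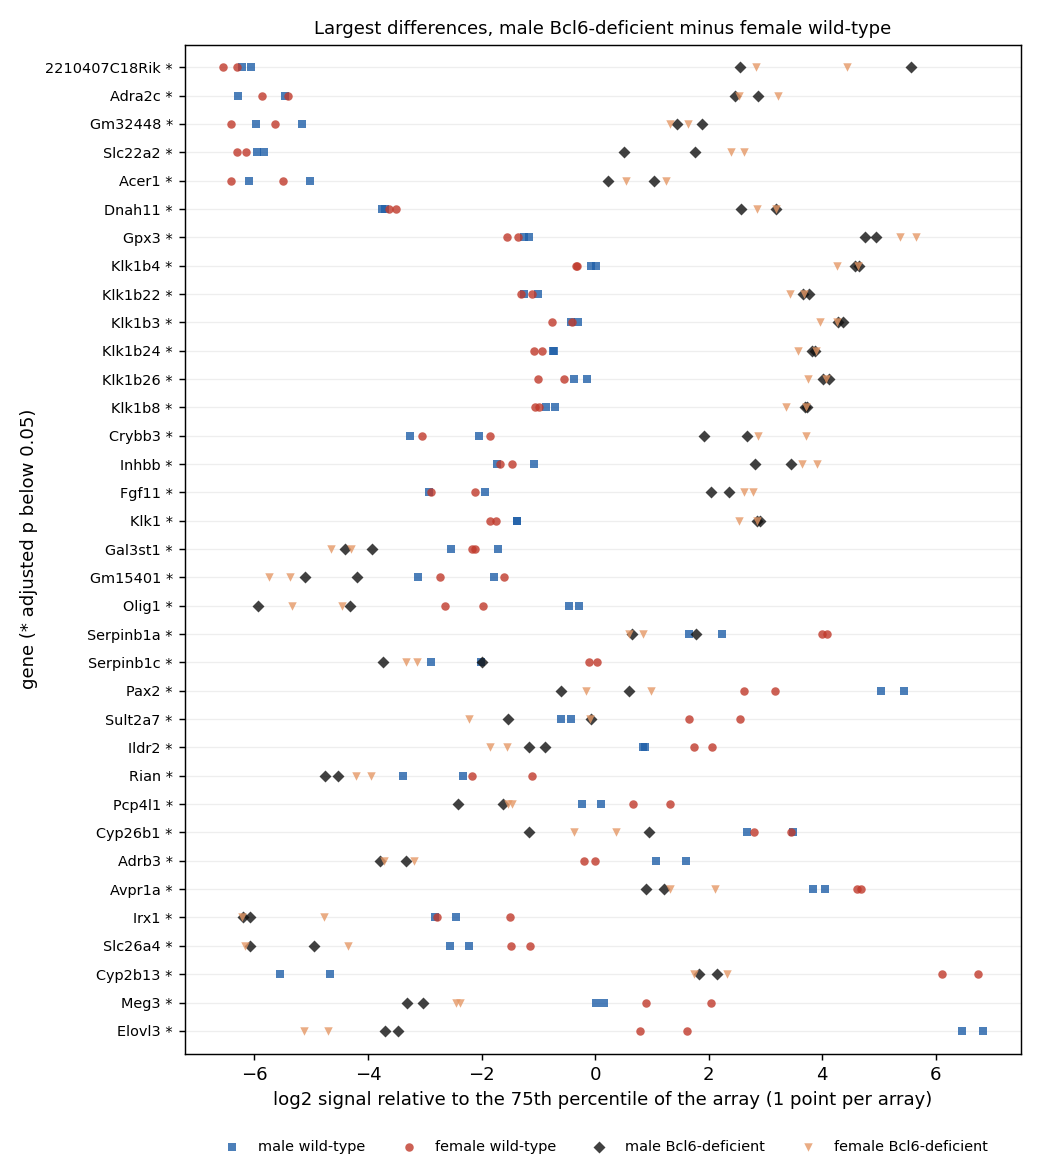
Level on each of the 8 arrays (log2, 1 point per array) of the genes with the largest differences in either direction between males labelled Bcl6-deficient (black diamonds) and wild-type females (red circles), beside wild-type males (blue squares) and females labelled Bcl6-deficient (orange triangles). In the upper block both groups labelled Bcl6-deficient lie right of both wild-type groups, as for Klk1b4 at 4.64 and 4.58 against -0.33 and -0.34.

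Every cholesterol synthesis gene that passed was lower than in wild-type females, and the median of wild-type males lay below females too. Of 22 measured genes of that pathway 8 were below wild-type females and none above, with a median of -0.51. The median difference of wild-type males from wild-type females was -0.49, which was not tested. Among Srebf2, Cyp51, Msmo1 and Dhcr7, only Cyp51 passed between the wild-type sexes (-0.77, adjusted p = 0.015, limma). Srebf2, the transcription factor that drives the pathway, read -1.34 and -1.05 against -0.17 and 0.09 in wild-type females (-1.15 ± 0.17, adjusted p = 0.0044), and wild-type males read -0.76 and -0.61. Among the enzymes, Cyp51 was below females (adjusted p = 0.00219), Msmo1 by 1.01 (SE 0.17) and Dhcr7 by 1.02 (SE 0.20). Against wild-type males, Srebf2 (-0.51), Cyp51 (-0.23), Msmo1 (-0.51) and Dhcr7 (-0.40) did not pass (adjusted p = 0.0838 to 0.287, limma). Msmo1 did not pass without male replicate 4, at -0.85, and Dhcr7 did not pass without male replicate 3 or female replicate 3.

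Bile acid and P450 genes that passed were also mostly lower. Of 30 bile acid genes 5 fell and none rose (median -0.26). Abcc3, an efflux pump for conjugates, read 3.77 and 3.14 against 5.53 and 5.65 (-2.13 ± 0.23, adjusted p = 0.000694), with both wild-type sexes alike. Slco1b2 (-1.01 ± 0.22) and Fgfr4 (-0.95 ± 0.16) were lower as well. Slco1b2 lost its call without each of 6 arrays taken singly and Fgfr4 without female replicate 3. Of 68 cytochrome P450 genes, 7 rose and 16 fell (median -0.29). Beside the P450 genes already described, Cyp2d34 fell by 2.54 (SE 0.23), with 1 of the male arrays above background. The Cyp2c genes Cyp2c37 (-2.26 ± 0.25), Cyp2c50 (-2.41 ± 0.17) and Cyp2c54 (-2.00 ± 0.19), named after their values were seen, fell although they had no wild-type sex difference of 1.

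Lipid genes that passed moved both ways, beside 3.84% higher and 2.76% lower among all members. Of 37 lipogenesis and triglyceride genes 7 rose and 5 fell (median -0.29). Pnpla3, a lipase known for its role in fatty liver, read -0.62 and -0.59 against -3.69 and -3.61 (3.04 ± 0.36, adjusted p = 0.00128). The desaturases Fads1 (1.41 ± 0.13) and Fads2 (1.39 ± 0.17) rose too. Of 52 genes of PPARA and fatty acid oxidation 4 rose and 2 fell (median -0.05). The mitochondrial carriers Ucp2 (1.09 ± 0.20) and Ucp3 (1.13 ± 0.21) rose, with calls lost without female replicate 4 or male replicate 3, and Slc27a1, a fatty acid importer, fell (-1.32 ± 0.30), with its call lost without each of 7 arrays taken singly.

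Conjugation, metal and secreted-protein genes that passed followed no single direction, where 3.84% of all members were higher and 2.76% lower. Of 17 sulfotransferases 5 rose and 3 fell (median 0.71), including Sult1c1 (1.18 ± 0.18, not passing without male replicate 3) and Sult5a1 (-1.28 ± 0.24, not passing without male replicate 3). Of 32 glutathione and conjugation genes 6 rose and 1 fell (median 0.05), with Gpx2 at 2.08 ± 0.39, lost without 3 of the arrays. Of 22 metallothionein and iron genes 3 rose (median 0.15): Mt1 (0.92 ± 0.20), Slc39a14 (0.85 ± 0.17) and Cp (1.57 ± 0.14), of whose 4 probes at least 1 gave -0.21. The calls of Mt1 and Slc39a14 were lost without female replicate 4 or male replicate 4, and that of Mt1 also without male replicate 3. Of 11 major urinary protein genes, which carry pheromones and are near-identical copies, 2 fell (median -0.23), Mup6 by 2.20 (SE 0.31) and Mup5 by 1.29 (SE 0.29), the latter lost without each of 5 arrays taken singly.

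Zonal and amino acid genes included a fall of Lgr5, a Wnt pathway gene of hepatocytes around the central vein. It read -1.50 and -1.78 against 0.56 and 0.90 in wild-type females and -0.58 in 1 wild-type male and close to 0 in the other (-2.37 ± 0.25, adjusted p = 0.000716). Over all members 3.84% were higher and 2.76% lower. Of 14 pericentral genes 3 fell and 1 rose (median -0.43), the rise being that of the glutamate carrier Slc1a2 (1.36 ± 0.15). Glul, glutamine synthetase, fell by 0.90 (SE 0.20) and Oat, ornithine aminotransferase, by 0.62 (SE 0.14), and both calls were lost without each of 5 arrays taken singly. Of 15 periportal genes 3 fell and 1 rose (median -0.21), the rise being Aldh1b1 (1.47 ± 0.21). Of 28 glucose and amino acid genes 6 fell and 1 rose (median -0.21), and Slc2a2, the glucose carrier of hepatocytes, fell by 1.20 (SE 0.20).

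In each list of immune, growth and clock genes between 1 and 4 genes passed, beside 6.6% of all members. Of 42 interferon response genes 3 fell and 1 rose (median -0.18). Usp18, which restrains interferon signalling, read 0.27 and 0.20 against 1.56 and 1.93 in females and 0.88 and 0.53 in wild-type males (-1.51 ± 0.20, adjusted p = 0.00219). Of 25 acute phase and chemokine genes 2 fell (median -0.09). Of 26 cell cycle genes 2 rose (median 0.22), among them the proliferation marker Mki67, at 0.84 and 1.14 against -0.32 and -0.85 (1.58 ± 0.20, adjusted p = 0.00202). Of 17 fibrosis genes 1 rose (median 0.42), the growth factor subunit Pdgfa (2.12 ± 0.16, adjusted p = 8.44e-05). Of 11 fetal and imprinted genes 1 rose and 2 fell (median 0.10), and of 14 circadian clock genes 1 fell (median -0.07).

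**Figure D5:**
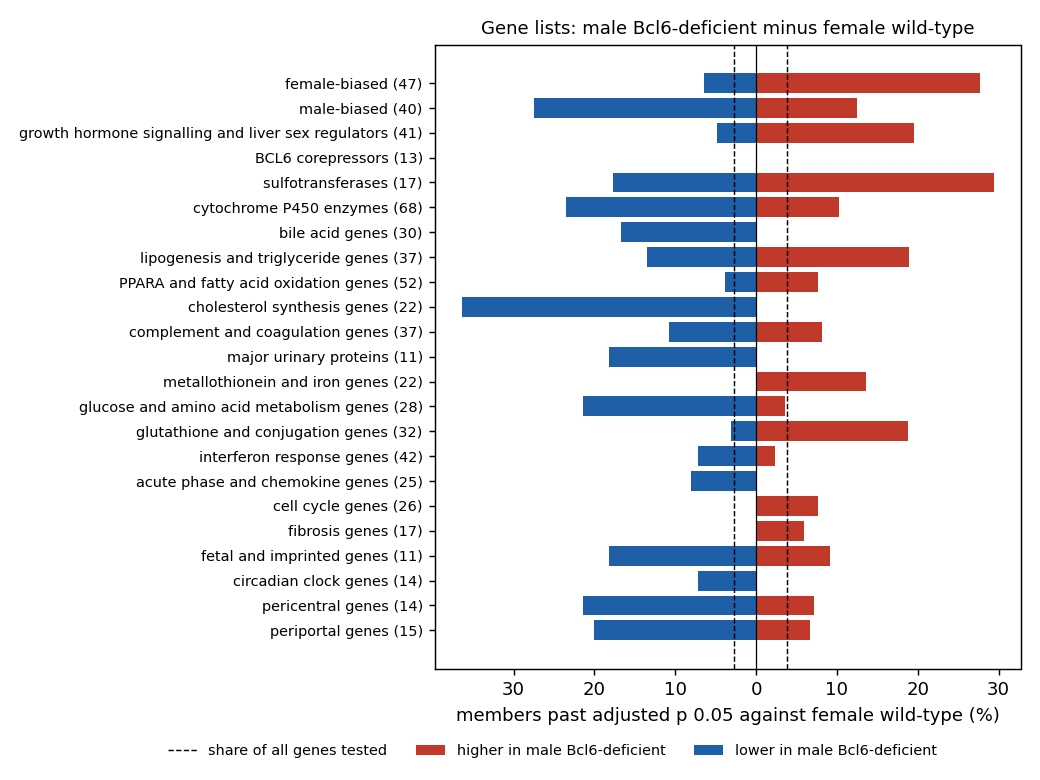
Share of the measured members of each list (number in brackets) that passed the test as higher (red, to the right) or lower (blue, to the left) in males labelled Bcl6-deficient than in wild-type females, with dashed lines at the shares of all members, 3.84% and 2.76%. Bars for cholesterol synthesis and bile acid genes lie only to the left, and those for metallothionein and iron genes only to the right.

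Hepatocyte markers stayed within 1 of the female level, and markers of other cell types varied more. Of 7 hepatocyte markers none passed (limma), beside 6.6% of all members, and all 7 had intervals within 1 of 0. Their summed level is linear, as a multiple of the array's 75th percentile. It was 4530 and 4040 in males labelled Bcl6-deficient and 3790 and 3640 in wild-type females. Of 7 Kupffer cell and macrophage markers none passed, and summed levels of 132 and 197 overlapped with 178 and 187 in females. Among 7 endothelial markers Lyve1 rose (0.74 ± 0.16), a call lost without each of 4 arrays taken singly. Among 4 cholangiocyte markers Sox9 fell (-1.39 ± 0.32), a call lost without each of 6 arrays taken singly. The median of the cholangiocyte markers was -0.86 (range -1.39 to 0.42), while their summed level was 9.48 and 12.3 against 9.05 and 7.92. Among 3 pancreas markers Amy2a5 rose (0.87 ± 0.17), a call lost without 3 of the arrays taken singly, while the summed level of that list was 35.1 and 27.0 against 49.9 and 31.5. None of the stellate, T and NK, B and plasma, neutrophil, erythroid or adipocyte markers passed, and the 4 B and plasma markers had a median difference of 0.87, with no interval within 1 of 0. Both male arrays were above both female arrays for all 4, as for 24.2% of all members. The part of other cell types in the gene differences was not tested.

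Of the 34 genes called in opposite directions in the comparison and its exchange of sexes, 23 lay between the wild-type levels. Another 2 were beyond the male level and 9 had no wild-type difference of 1. Genes near the female level do not pass the test and cannot be among them, so these counts follow in part from the choice. A gene between the levels may also lie close to the male one. Besides Cyp2b13, Gstp1, Cib3, Asns, Onecut1 and Oat, the 34 genes include Tff3, a secreted trefoil peptide, named after its values were seen. Tff3 read -0.73 and -1.43 in males labelled Bcl6-deficient, -4.02 and -3.97 in wild-type females and 1.05 and 1.62 in wild-type males, between the sexes (2.92 ± 0.50, adjusted p = 0.00922), with 1 of the female arrays above background. A pair of transcripts without a symbol or a known chromosome stood out, with differences of 6.48 ± 0.24 and 5.07 ± 0.29 here. In the exchange they differed by -6.94 and -5.41. Wild-type males were above wild-type females by 6.97 and 5.35 in them, so both transcripts lay close to the male level. These values separate males from females whatever the genotype label, and whether such transcripts lie on the Y chromosome was not tested.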

How the data were processed

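Liver RNA was measured on 8 1-colour Agilent arrays (56605 probes, Cy3). Spot intensities were deposited by the authors as background-subtracted Feature Extraction output (9.1.3.1 per the submitters' processing notes, but 11.5.1.1 in the headers of the files). The authors' deposited value table is in log2. Compared with the spots it was log2 intensity less the 75th percentile of the array, without gene centring (r = 1.0 on each array, column medians -3.71 to -3.53). RefSeq accessions named 32994 probes.

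Genes were represented by their brightest probe among those well above background throughout some group. Group means of all 8 arrays were fitted in limma 3.58.1 (R 4.3.3, intensity trend, 4 residual and 4.77 prior degrees of freedom), adjusting over 23870 genes at a threshold of 0.05. The code was tested on simulated data, and the number of arrays limits precision.

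Members and the 34 gene lists were chosen with earlier results of these data known. Names came from the 12 largest differences per direction (called, with a symbol, no overlap, detected on all 4 arrays), up to 6 bounds per direction, Bcl6, the 4 largest calls per list and any gene of the sex-biased lists. Of 170, 53 had several probes, which differed in sign for Cp, Egfr, Mup3 and Pax2. Results of some genes are not reported here. Alternatives changed values, background, normalization, filter, probes, genes, variance model, arrays fitted and replicate block. Replicate numbers were not taken as pairs: deviations correlated at 0.01 to 0.32. Figures used matplotlib 3.10.9.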

Additional observations from a re-analysis of the deposited data

How the results depend on the processing

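Of 114 named genes past the threshold, 64 kept the call under all 19 alternatives and none of the 170 named genes changed direction while called. The fit of only the arrays compared gave 963 calls (362 lower), 487 for the wild-type sexes, 5 female-biased genes lower, and 3 male-biased genes higher and 6 lower. Without a filter on dim probes 407 genes were lower, 418 differed between wild-type sexes, male-biased genes were 3 higher and 6 lower, and 72 genes were past the female level and 31 short of it. The median over all genes was then 0.10. Without an intensity trend 409 genes were lower, 421 differed between wild-type sexes, and male-biased genes were 3 higher and 7 lower. Normexp background gave 59 genes past the female level and 117 near it, and named autosomal genes alone gave 125 near. Where fewer genes or arrays were fitted the smaller counts follow in part from that; otherwise the cause was not tested.

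Leaving out 1 array at a time gave 834 to 1326 calls (494 to 795 higher, 338 to 531 lower), 1718 to 4011 in the exchange of sexes, and 344 to 691 between wild-type sexes. Female-biased genes were then 8 to 16 higher and 3 to 6 lower, and male-biased genes 6 to 16 lower. Genes past the female level were 80 to 121, short of it 26 to 58 and near it 143 to 366. The replicate block gave 1686 calls, 1458 of them shared with the fit without it. Its numbers are shared labels and no pairing is stated. Dim genes are limited by background, where only a bound of the fold can be given.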
